A study of Mus musculus with 48 samples.

Results

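Gene expression in the pars tuberalis was followed through the first day of prolonged evening light in mice that had lived under short days. This day is covered by the 12 arrays whose source is given as long day delay, of 48 arrays in the series, with 2 arrays at each of ZT0, ZT4, ZT8, ZT12, ZT16 and ZT20 (hours after lights on). The delay mice were male CBA/N mice aged 6 weeks that had spent 3 weeks under short days, and on the day of sampling their darkness began at ZT16 instead of ZT8, which gave 8 h of extra light. They were compared with 12 short day arrays from male CBA/N mice aged 8 weeks that stayed under 8 h of light and 16 h of darkness. The groups thus differed in age as well as in lighting. Each array measured tissue pooled from 25 mice, punched with a 0.5 mm needle from frozen brain slices, so cells around the pars tuberalis could enter a sample. Going by ZT, the delay arrays at ZT0, ZT4 and ZT8 came before the extra light had acted, while those at ZT12 and ZT16 fell within it or at its end. The question was which genes varied between the 6 time points, when they peaked, and how their daily course compared with that under short days.

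The pars tuberalis is a thin layer of endocrine cells around the pituitary stalk that carries melatonin receptors and relays day length to the hypothalamus through thyrotropin. Its cells hold a circadian clock, in which ARNTL with CLOCK or NPAS2 activates genes at E-box motifs. Among the activated genes are those for the PER and CRY proteins, which repress the activators, and for NR1D1 and NR1D2, which repress Arntl. DBP, TEF and HLF carry the rhythm onward at D-box motifs, where NFIL3 opposes them.

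Both motifs can be read in promoters of clock genes that varied over the delay day, and 5 are shown with their matches in capitals. They are the 250 bases before the annotated start, from RefSeq on GRCm38.p6, written 5′ to 3′ on the strand of the gene. The first 3, from Per1 (chr11:69098699-69098948, plus strand), Cry1 (chr10:85185055-85185304, minus strand) and Ciart (chr3:95882229-95882478, minus strand), held the E-box CACGTG, Ciart 3 times. The others, from Per3 (chr4:151044666-151044915, minus strand) and Timeless (chr10:128237816-128238065, plus strand), held the D-box TTATGTAA, Per3 in 2 places.
Per1: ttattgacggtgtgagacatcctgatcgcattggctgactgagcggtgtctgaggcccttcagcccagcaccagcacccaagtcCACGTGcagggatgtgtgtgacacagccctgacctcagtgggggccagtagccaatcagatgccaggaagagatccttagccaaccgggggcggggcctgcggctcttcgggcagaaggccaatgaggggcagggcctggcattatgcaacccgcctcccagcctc
Cry1: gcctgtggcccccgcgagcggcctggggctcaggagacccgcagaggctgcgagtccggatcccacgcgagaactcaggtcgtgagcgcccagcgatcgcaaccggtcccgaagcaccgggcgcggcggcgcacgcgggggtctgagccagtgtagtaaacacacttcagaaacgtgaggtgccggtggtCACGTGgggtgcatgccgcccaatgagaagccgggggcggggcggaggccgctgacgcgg
Ciart: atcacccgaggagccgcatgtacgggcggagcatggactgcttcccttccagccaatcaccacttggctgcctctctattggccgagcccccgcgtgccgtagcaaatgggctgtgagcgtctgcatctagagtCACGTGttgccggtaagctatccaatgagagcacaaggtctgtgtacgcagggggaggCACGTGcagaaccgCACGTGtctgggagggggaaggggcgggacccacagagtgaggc
Per3: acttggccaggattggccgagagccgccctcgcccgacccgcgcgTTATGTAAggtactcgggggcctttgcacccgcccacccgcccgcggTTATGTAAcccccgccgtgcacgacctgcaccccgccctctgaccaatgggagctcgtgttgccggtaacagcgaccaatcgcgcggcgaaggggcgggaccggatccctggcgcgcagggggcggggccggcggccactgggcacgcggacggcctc
Timeless: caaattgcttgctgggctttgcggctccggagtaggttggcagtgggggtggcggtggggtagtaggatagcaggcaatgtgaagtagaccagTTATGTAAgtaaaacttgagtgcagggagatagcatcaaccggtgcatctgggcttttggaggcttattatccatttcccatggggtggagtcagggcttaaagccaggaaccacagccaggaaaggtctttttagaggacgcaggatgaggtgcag
Of 32851 RefSeq promoter windows, which run from 250 bases before to 50 after the start, 7.15% held CACGTG and 0.938% held TTATGTAA on either strand. No match of one motif overlapped a match of the other. A window was found for 25 of the 30 clock genes measured, and 5 of the 25 held the E-box (Tef and Bhlhe41 besides the 3 shown) while 2 held the D-box. A match is a string of letters in this window and no evidence of binding.

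All values are log2 expression, and a gene is said to have passed where its adjusted p was below 0.05. Transcripts of thyrotroph cells marked the tissue: Tshb, the thyrotropin beta subunit, read 11.4 to 12.7 and Cga, the shared alpha subunit, 13.4 to 13.8 in the delay arrays, whose medians were 6.98 to 7.01. Transcripts listed here as markers of other tissue varied in level. Pomc, in the anterior pituitary list, read 12.0 to 13.2 and Ttr, in the choroid plexus list, 10.1 to 12.4, both highest in ZT16 replicate 1. In bulk tissue, fewer cells of a type and less RNA per cell cannot be told apart.

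The delay arrays stood apart from their labels in clock time, including those labelled ahead of the extra light. That order goes by ZT alone. Each array was set against the short day course of the 19 clock genes with a 24 h cosine under short days. Each gene's mean over the 12 delay arrays was first subtracted, and the short day time that correlated best over genes was taken. All 12 delay arrays matched a time 2.8 to 5.2 h before their own label, on average -3.78 h ± 0.74 (SD, n = 12), with correlations of 0.81 to 0.97 over genes, which are not independent. At ZT0 the 2 arrays matched short day ZT19.8 and ZT20.2, and at ZT4 they matched ZT22.8 and ZT23.0. The 6 arrays at ZT12, ZT16 and ZT20 stood at -3.43 h ± 0.50 and the 6 at ZT0, ZT4 and ZT8 at -4.13 h ± 0.82. An exact two-sided permutation test of 3 against 3 time points gave p = 0.4. Its smallest possible p is 0.1, so no difference could have passed at 0.05, and the test cannot decide whether the offsets differed. The 2 arrays of a time point had like offsets, so time points and not arrays were permuted. The offset was thus also found in the arrays labelled ahead of the extra light, although the subtracted means include the later arrays. Age, the set of mice and the day of sampling go with the group, and these and an error in the labelled times of either group cannot be told apart. Every ZT and every peak time below is as labelled, and each difference from short days includes this offset.

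**Figure D1:**
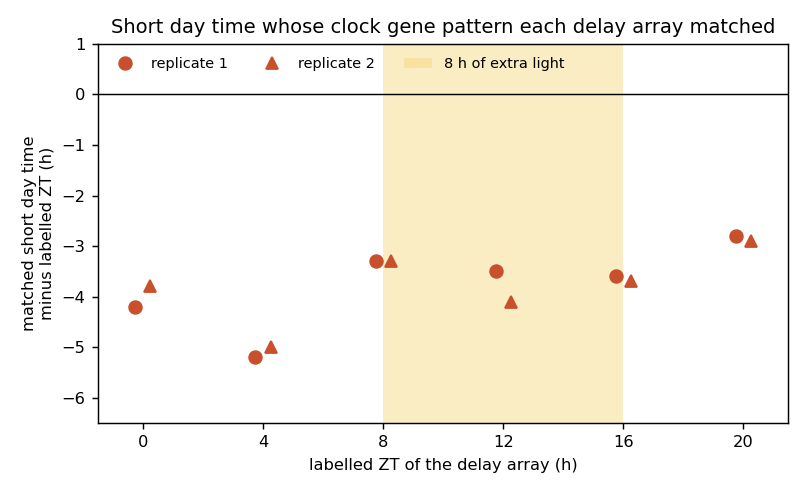
Offset of each delay array, in hours, between the short day time whose pattern of 19 clock genes it matched best and its labelled ZT. Circles and triangles are replicates 1 and 2, the shaded band is the 8 h of extra light, and all 12 arrays lie between -5.2 and -2.8 h, below the line at 0.

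Over the delay day 276 of 18193 genes varied between the 6 time points by limma's F test, which is 1.52% of those tested, and 647 had a 24 h cosine, which is 3.56%. Of these, 262 passed both tests, 385 the cosine alone and 14 the F test alone. No gene departed from a 24 h cosine, by its 12 h and 8 h terms, after adjustment in limma (0 of 18193, with 616 at an unadjusted p under 0.05). The 276 genes spanned a median of 0.58 log2 between their lowest and highest time point, with a range of 0.30 to 2.14, and 36 spanned at least 1 log2. Over all genes the median span was 0.22. The count of 276 fell to 172 without ZT12 replicate 1.

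Evening was the time of most peaks. Of the 647 genes with a cosine, 246 (38%) had their fitted peak in the 4 h around ZT16, 105 around ZT12 and 100 around ZT20, against 86 around ZT0, 54 around ZT4 and 56 around ZT8. Among the 276 genes of the F test, 89 were highest at ZT16 and 84 at ZT12, and 97 were lowest at ZT8. The cosine count of 647 fell to 417 without ZT16 replicate 1, 401 without ZT16 replicate 2 and 350 without ZT12 replicate 1. The gap between the 3′ and 5′ actin control probe sets, a measure of RNA quality, had a median of 1.84 log2. It was largest in ZT16 replicate 1 (2.14) and smallest in ZT4 replicate 1 (1.64), and its part in these peaks was not tested. Under short days 1621 genes passed the F test (8.91%) and 2831 had a cosine (15.6% of those tested), and 1703 of them (60.2%) peaked around ZT0 and 137 around ZT16.

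**Figure D2:**
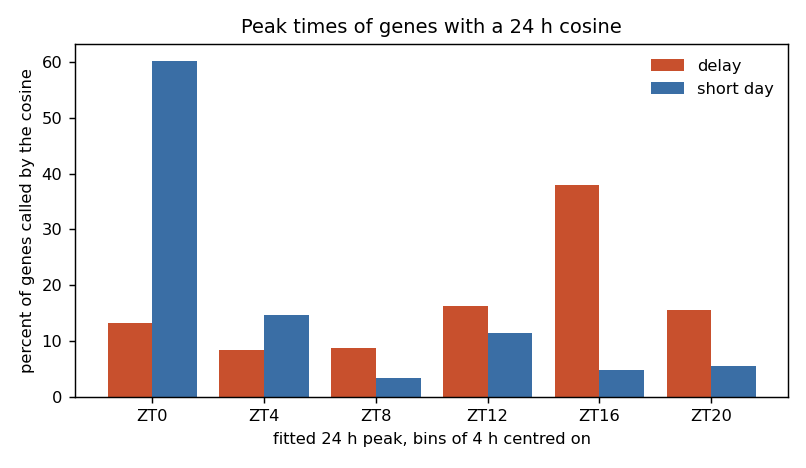
Percent of genes with a 24 h cosine whose fitted peak fell in each 4 h bin, for 647 genes in delay (left bar) and 2831 under short days (right bar). The tallest delay bar is at ZT16 with 38%, and the tallest short day bar is at ZT0 with 60.2%.

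Clock genes varied widely over the delay day. Of 30 measured, 17 passed the F test (56.7%, against 1.52% of all genes) and 18 the cosine, and the median span of the 11 repressors was 0.96 log2, that of the 8 output factors 0.54 and that of the 5 activators 0.47. In order of fitted peak, Nr1d1 came at ZT5.6, Dbp at ZT7.1, Nr1d2 at ZT9.0, Per1 at ZT11.2, Per2 at ZT12.7, Cry1 at ZT17.6, Nfil3 at ZT19.4, Arntl at ZT21.8 and Npas2 at ZT22.9, with SEs of 0.28 to 0.75 h. Nr1d1 and Dbp, next to each other in this order, lay within 2 SE of their difference if their errors are taken as independent.

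Among the activators, Npas2 and Arntl passed and Clock, Rora and Rorb did not. Npas2, a partner of ARNTL, read 6.80 and 6.90 at ZT0, 6.47 and 6.36 at ZT4, 5.21 and 5.32 at ZT8, 5.55 and 5.83 at ZT12, 5.96 and 5.96 at ZT16, and 6.19 and 6.57 at ZT20. It was highest at ZT0 and lowest at ZT8, and these time points did not overlap with each other. Its span was 1.58 log2 (adjusted p = 3.8e-09). Arntl read 9.64 and 9.66 at ZT0, 9.15 and 9.15 at ZT4, 8.50 and 8.45 at ZT8, 8.70 and 8.69 at ZT12, 9.09 and 9.16 at ZT16, and 9.69 and 9.68 at ZT20. It fell from its ZT0 level to a trough at ZT8 and was back at ZT20 (amplitude 0.62 ± 0.06 SE, adjusted p of the F test = 4.2e-06). A dimmer second probe set of Arntl had an amplitude of 0.12 and did not pass, nor did that of Npas2 with 0.058.

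Of the repressors, 9 of 11 passed the F test: Per1, Per2, Per3, Cry1, Nr1d1, Nr1d2, Ciart, Bhlhe40 and Timeless. Cry2 passed the cosine alone (adjusted p = 0.043), and Bhlhe41 passed neither. Per2, whose protein feeds back on the activators, read 7.53 and 7.98 at ZT0, 8.02 and 7.90 at ZT4, 8.75 and 8.86 at ZT8, 9.48 and 9.36 at ZT12, 8.80 and 8.97 at ZT16, and 8.34 and 8.44 at ZT20. It was highest at ZT12, 4 h into the extra light, and spanned 1.67 log2 (3.18-fold, adjusted p = 6.7e-09). Per1 read 10.13 and 10.21 at ZT12 and no more than 9.87 in any other array, and Per3 had a smaller amplitude of 0.34 ± 0.05. Among the dimmer probe sets of Per3, that with an adjusted p of 0.033 in the F test passed and the others did not (0.14 to 0.99).

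Nr1d1, the repressor of Arntl, read 8.23 and 8.19 at ZT0, 8.52 and 8.47 at ZT4, 8.83 and 8.92 at ZT8, 8.05 and 8.08 at ZT12, 7.68 and 7.56 at ZT16, and 8.08 and 8.01 at ZT20. Its highest time point, ZT8, was the lowest of Arntl (adjusted p = 3.1e-06). Cry1 read 6.99 and 7.29 at ZT8, against 7.93 and 7.70 at ZT16 and 7.79 and 8.12 at ZT20, so that it peaked after the Per genes. Ciart, a repressor of the activator pair, read 8.25 and 8.15 at ZT8 and 8.10 and 8.26 at ZT12, against 6.97 to 7.45 at the other times. Bhlhe40, which competes at E-boxes, was highest at ZT8 with 10.47 and 10.51.

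Of the output factors, 6 of 8 passed the F test: Dbp, Tef, Nfil3, Noct, Usp2 and Wee1. Dbp, an activator at D-boxes, read 11.68 and 11.90 at ZT0, 11.99 and 12.08 at ZT4, 12.38 and 12.50 at ZT8, 12.15 and 12.34 at ZT12, 11.27 and 11.10 at ZT16, and 11.53 and 11.78 at ZT20. It was high at ZT8 and ZT12 and lowest at ZT16 (adjusted p = 0.015, up to 0.114 when ZT8 replicate 2 or either ZT16 array was left out). Nfil3, the opposing repressor, peaked at ZT19.4 ± 0.58 SE, and Wee1, a kinase that holds back mitosis, at ZT13.0 ± 0.55. Usp2, a ubiquitin protease, peaked at ZT11.8 ± 0.57. Tef, a relative of DBP, and Noct, the rhythmic enzyme nocturnin, lost the call without single arrays, in 4 and 5 of 12 cases. With the delay arrays alone, Nfil3 and the repressor Per3 did not pass the F test (adjusted p = 0.094 for each). Dimmer probe sets of Wee1 (adjusted p = 0.50), Tef (0.78 and 0.89) and the repressor Nr1d2 (0.31) did not pass that test. Those of Usp2 (9.2e-04) and Dbp (0.0015) did. Hlf and Nampt did not pass, and none of 6 modifiers of clock proteins did (0 of 6 by limma's F test, with 1 at an unadjusted p under 0.05, and 0 by the cosine).

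**Figure D3:**
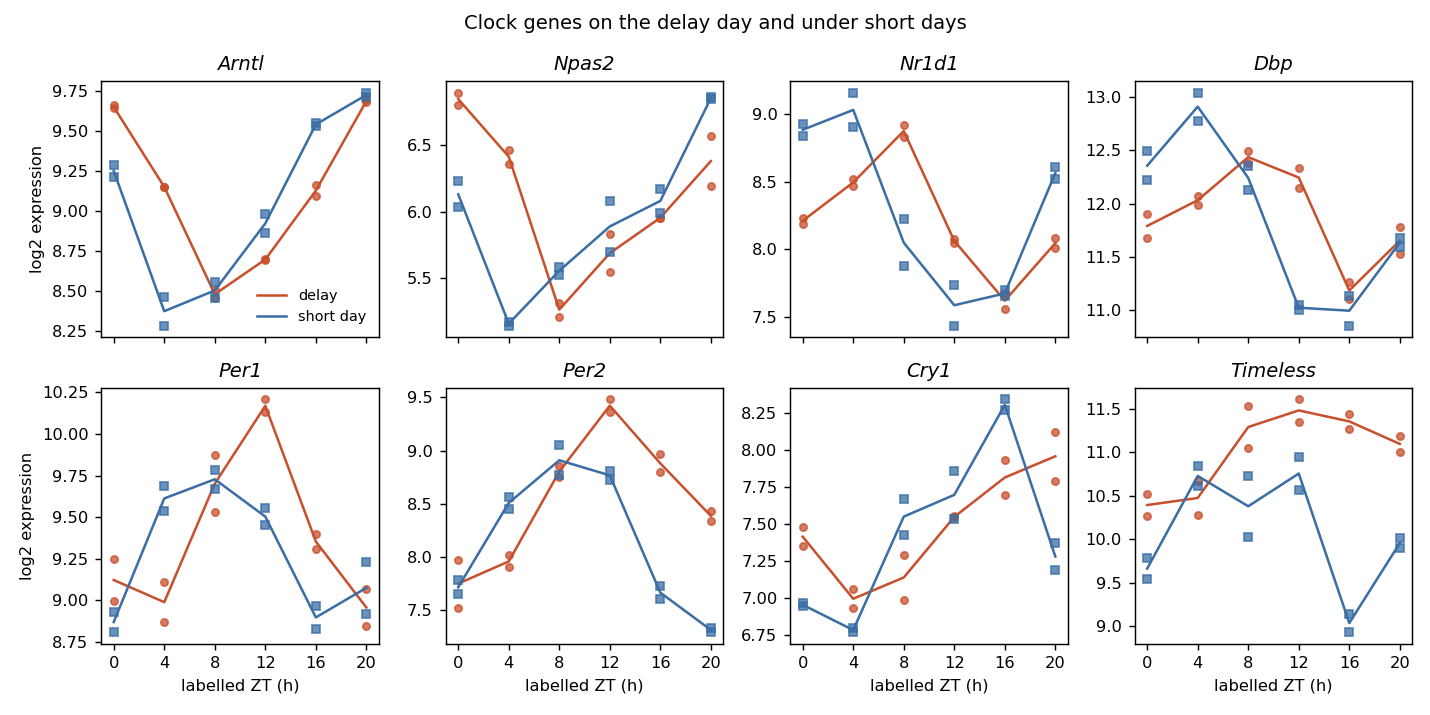
Log2 expression by labelled ZT of 8 clock genes, with points for single arrays and lines through the means of 2 arrays, in delay (circles) and short day (squares). The delay curves run to the right of the short day curves, as for Per2, whose highest time point was ZT12 in delay and ZT8 under short days.

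Against the short day arrays of the same ZT, the clock genes of the delay day peaked later. In the 16 clock genes with a cosine in both groups the fitted peak was a median of 4.00 h later in delay (quartiles 3.74 and 4.49 h), and 15 of 16 were 2 to 6 h later. Per2 peaked at ZT12.7 in delay and at ZT8.3 under short days, 4.44 ± 0.39 h later (SE), and Nr1d1 at ZT5.6 in delay and ZT1.2 under short days, 4.35 ± 0.49 h later. The amplitude was lower in delay in 12 of the 16 genes, against 128 of all 294 genes with a cosine in both groups. For Dbp it was 0.49 in delay and 0.99 under short days, a difference of -0.49 ± 0.14 (SE). For Nr1d1 it was 0.50 in delay and 0.78 under short days, a difference of -0.29 ± 0.08. Arntl and Bhlhe40 had differences smaller than their SE, with -0.075 ± 0.089 and 0.0098 ± 0.053.

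The daily course differed between delay and short day, matched by ZT, in 335 genes (1.84% of those tested), and these included 16 of the 30 clock genes. Single arrays moved this count between 116 without delay ZT4 replicate 2 and 1109 without short day ZT4 replicate 2. When each delay time point was set against the short day arrays labelled 4 h earlier, an alternative chosen after seeing the data, 36 genes differed (0.198%), among them a single clock gene. The number of genes at an unadjusted p under 0.05 was 3196 with this offset and 3384 by ZT, so it moved far less than the number that passed. The same arrays labelled 8, 12, 16 and 20 h earlier gave 406 (2.23%), 1013 (5.57%), 887 (4.88%) and 866 (4.76%) genes. The 24 h cosine alone differed by ZT in 1220 genes (6.71%). Over all 294 genes with a cosine in both groups, which are 45.4% of those in delay and 10.4% of those under short days, the peak was a median of 3.52 h later in delay. Of the 294, 185 (62.9%) were 2 to 6 h later, 60 lay within 2 h, 36 were over 6 h later and 13 over 2 h earlier.

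**Figure D4:**
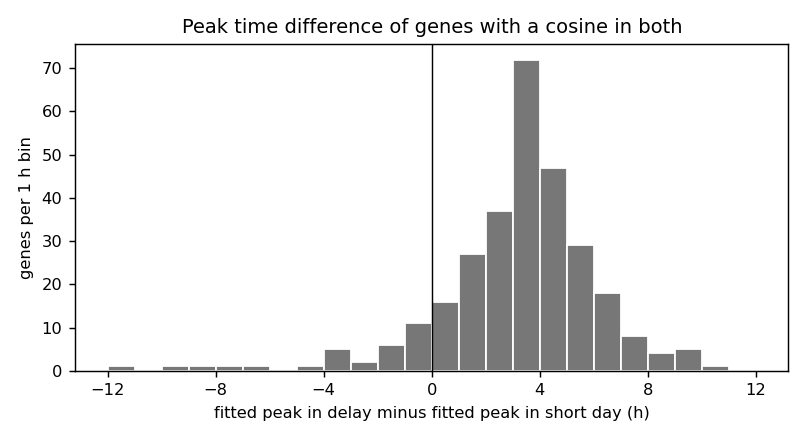
Number of genes per 1 h bin of the fitted peak in delay minus the fitted peak under short days, for the 294 genes with a cosine in both. The tallest bin, from 3 to 4 h later in delay, holds 72 genes.

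The exceptional clock gene was Timeless, a partner of the replication fork whose fly relative is a clock protein. It read 10.27 and 10.52 at ZT0, 10.67 and 10.28 at ZT4, 11.05 and 11.54 at ZT8, 11.61 and 11.36 at ZT12, 11.28 and 11.44 at ZT16, and 11.01 and 11.19 at ZT20. All arrays from ZT8 to ZT20 lay above all arrays at ZT0 and ZT4 (adjusted p = 1.5e-04). At ZT16 the delay arrays read 11.28 and 11.44, against 9.14 and 8.93 under short days. Its course differed from that of short days by ZT (adjusted p = 3.8e-06) and with the 4 h offset (adjusted p = 0.0041), and a second probe set, with an amplitude of 0.53, did not pass over the delay day (adjusted p = 0.078).

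Outside the clock lists, the smallest p-value of the day belonged to Vegfd, a secreted growth factor of blood and lymph vessels. It read 10.92 and 11.07 at ZT0, 10.74 and 10.34 at ZT4, 9.51 and 9.76 at ZT8, 8.81 and 8.90 at ZT12, 8.98 and 9.24 at ZT16, and 10.70 and 10.40 at ZT20. It was high from ZT20 to ZT4 and low from ZT8 to ZT16 with no overlap, and its span of 2.14 log2 (4.42-fold, adjusted p = 4.2e-10) was the largest of all genes that passed. Its 2 other probe sets had amplitudes of 1.10 and 1.08. Kdr, a receptor of the VEGF family on endothelium, passed with a low amplitude of 0.23 ± 0.05 and a peak at ZT10.8, and the call was lost without ZT12 replicate 1.

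Cplx3, a complexin that binds the release machinery of vesicles, spanned 1.95 log2. It read 7.08 and 6.92 at ZT0, 7.52 and 7.17 at ZT4, 6.04 and 6.01 at ZT8, 5.29 and 5.91 at ZT12, 6.00 and 5.98 at ZT16, and 7.89 and 7.22 at ZT20. All arrays from ZT20 through ZT4 lay above all from ZT8 to ZT16 (adjusted p = 5.8e-08). Fgd3 followed a similar course with a peak at ZT22.5 and an amplitude of 0.68 ± 0.06, although 2 dimmer probe sets of it did not pass. Ddit4l, an inhibitor of mTOR signalling, was highest at ZT0 with 10.47 and 10.69 and lowest at ZT16 with 9.22 and 9.39.

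Other genes peaked by day or in the evening. Nmu, the neuropeptide neuromedin U, was highest at ZT4 with 8.82 and 8.48 and read 7.25 to 7.70 from ZT12 to ZT20. Fabp7, a fatty acid binding protein of glia, peaked at ZT3.4 ± 0.44 with an amplitude of 0.42. Tspan4, a tetraspanin, read 9.04 and 8.97 at ZT12, against 7.91 and 7.84 at ZT0. Cables1, a linker of cyclin-dependent kinases, read 9.94 and 9.64 at ZT12, against 8.53 and 8.52 at ZT4, and Homer2, a synaptic scaffold protein, peaked at ZT15.9 ± 0.44 with an amplitude of 0.35. Tex11, known from meiosis in the testis, passed at a dim level of 3.76 to 5.32 with its peak at ZT9.7.

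Heat shock genes peaked in the evening, as did many others: 246 of the 647 genes with a cosine peaked around ZT16 and 100 around ZT20. Of 10 heat shock and cold inducible genes measured, 6 passed the F test (against 1.52% of all genes) and 8 the cosine (against 3.56%). Their median span was 0.66 log2, against 0.22 for all genes. Hspa1b, an inducible chaperone of the HSP70 family, read 9.73 and 9.59 at ZT0, 9.55 and 9.65 at ZT4, 9.60 and 9.40 at ZT8, 10.40 and 10.13 at ZT12, 10.87 and 10.97 at ZT16, and 10.54 and 10.53 at ZT20. It was flat from ZT0 to ZT8 and above that level in all later arrays (adjusted p = 4.4e-06). Hspa1a, its near-identical neighbour whose probes may share targets, read 9.90 and 9.95 at ZT16, against 8.79 and 8.35 at ZT8.

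Hsph1, a co-chaperone of HSP70, was highest at ZT20 and ZT16 with 13.46 to 13.62, and Dnajb1, of the HSP40 family, at ZT16 with 12.78 and 13.08. The call for Dnajb1 was lost without ZT16 replicate 2. That for Hspe1, a mitochondrial co-chaperonin with an amplitude of 0.22, was lost when any of the 12 arrays was left out. Dimmer probe sets of Hsph1, Dnajb1 and Hspe1 did not pass the F test (adjusted p of 0.39, 0.40 and 0.59). Those of Hspa1b did (adjusted p of 2.0e-04 and 8.6e-06). Ahsa2, which is related to an activator of HSP90 and stands outside this list, was highest at ZT16 with 11.72 and 11.79 and lowest at ZT8 with 10.94 and 10.90. Cirbp, an RNA binding protein induced by mild cold, ran the other way and read 9.73 and 9.72 at ZT8, against 8.60 and 8.63 at ZT16 and 8.48 and 8.68 at ZT20. The markers of the anterior pituitary and choroid plexus were also highest at ZT16 replicate 1, with summed levels of 13.6 and 12.7 on the log2 scale against delay ranges from 12.6 and 11.2, and their part in these courses was not tested. The anterior pituitary sum was highest of all 12 arrays in both ZT16 replicates, with 13.6 and 13.3, as was Pomc with 13.2 and 12.8, while the choroid plexus sum was 12.7 and 11.5. Other hormones of the anterior pituitary list did not follow Pomc in both replicates. Gh read 7.64 and 6.53 there, and Prl 8.39 and 7.25, the latter the lowest of the 12 arrays. The summed hypothalamic neuron markers were also highest in both ZT16 replicates, with 15.2 and 15.1. None of the 13 anterior pituitary and 8 choroid plexus markers passed the F test, with 0 and 1 at an unadjusted p under 0.05. At a share of 1.52% of all genes, none passing in lists this short is no result about these tissues.

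Of 16 measured genes that respond to glucocorticoids, 5 passed the F test with their highest level at ZT12. In all 7 of the 16 passed (against 1.52% of all genes): Fkbp5, Tsc22d3, Sgk1, Zbtb16, Cdkn1a, Fam107a and Per1, which is also a clock gene. The median span of the 16 was 0.57 log2. Over all 276 genes that passed the F test, 84 were highest at ZT12. Zbtb16, a zinc finger repressor, read 8.55 and 8.50 at ZT0, 8.23 and 8.21 at ZT4, 8.56 and 8.23 at ZT8, 9.56 and 9.59 at ZT12, 9.05 and 8.79 at ZT16, and 7.88 and 8.14 at ZT20. Its ZT12 arrays stood above all others, and it spanned 1.57 log2 (adjusted p = 0.0011). Fkbp5, a co-chaperone of the glucocorticoid receptor, read 10.58 and 10.37 at ZT12 and 9.32 to 10.18 elsewhere (adjusted p = 1.8e-04), while 2 dimmer probe sets did not pass.

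Sgk1, a kinase, read 10.77 and 10.66 at ZT12, above all other arrays, and Tsc22d3, a glucocorticoid-induced leucine zipper protein, read 11.11 and 11.38. Leaving out any of 4 single arrays ended the call for Sgk1, and any of 3 that for Tsc22d3. The dimmer probe sets of Tsc22d3 did not pass the F test (adjusted p of 0.22 to 0.95). Fam107a, an actin binding protein, was high at ZT12 and ZT16 with 12.50 to 12.58 and lowest at ZT8 with 11.93 and 11.83 (adjusted p = 3.1e-06). Cdkn1a, a cell cycle inhibitor, peaked at ZT21.5, apart from the rest of the list, and its call was lost without any of 11 arrays.

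Among markers of meninges and fibroblasts, 4 passed the F test and were low at ZT8 and ZT12. Of 12 measured, 4 passed that test (against 1.52% of all genes) and 5 the cosine (against 3.56%), with a median span of 0.44 log2. Over all 276 genes that passed the F test, 97 were lowest at ZT8 and 40 at ZT12. Col1a1, a chain of type I collagen, read 8.59 and 8.57 at ZT0, 8.45 and 8.50 at ZT4, 7.92 and 8.01 at ZT8, 7.64 and 7.76 at ZT12, 7.90 and 8.12 at ZT16, and 8.17 and 8.63 at ZT20. It was lowest at ZT12 (adjusted p = 3.4e-04). Igf2, a growth factor made by meninges, and Slc6a13, a GABA transporter found there, were also low at ZT8 and ZT12, with Igf2 at 9.35 to 9.79 against 10.04 to 10.49 at the other times. Fmod, a matrix proteoglycan, read 9.89 to 10.12 at ZT8 and ZT12 and 10.43 to 10.90 elsewhere. Its dimmer probe sets did not pass the F test (adjusted p of 0.096 to 0.40), nor did dimmer ones of Col1a1 and Igf2. The call for Fmod was lost without any of 7 arrays and that for Slc6a13 without either ZT12 array. Col3a1, a chain of type III collagen, passed the cosine alone and was lowest at ZT16, with a mean of 10.14, against 10.20 at ZT12 and 10.43 at ZT8. The summed level of all 12 markers was 15.05 to 15.22 on the log2 scale at ZT8 and ZT12 and 15.28 to 15.38 at the other times, and whether the share of such tissue in the punches varied was not tested.

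**Figure D5:**
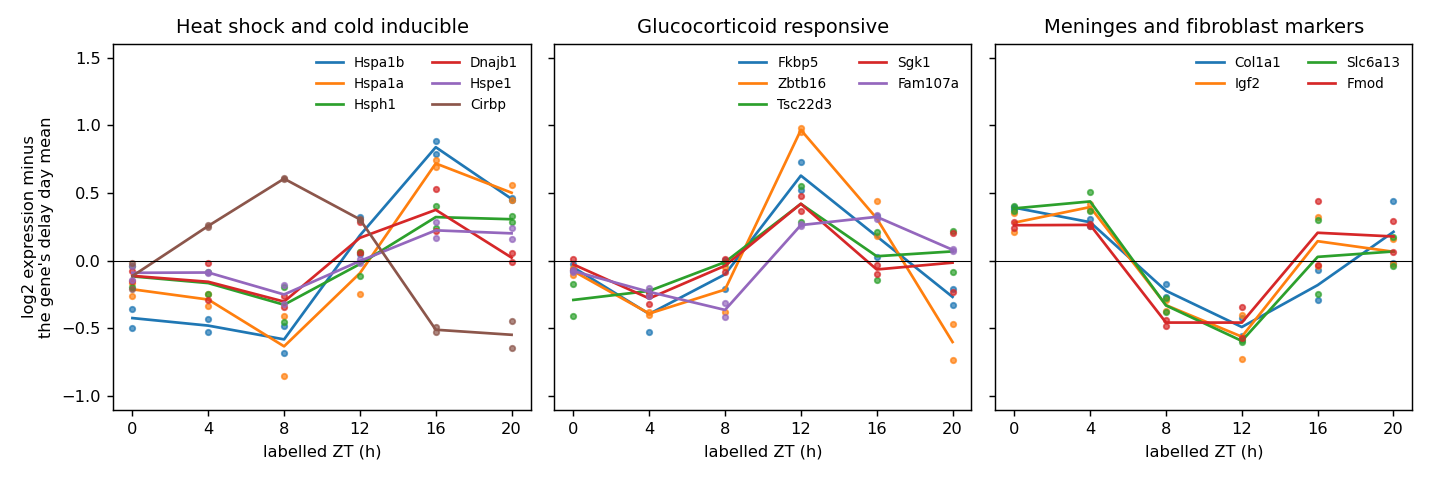
Log2 expression on the delay day minus each gene's delay day mean, by labelled ZT, with points for single arrays and lines through the means of 2 arrays. Heat shock genes (left) are highest at ZT16 or ZT20 while Cirbp is highest at ZT8, of the 5 glucocorticoid responsive genes drawn (middle) all but Fam107a, which is highest at ZT16, are highest at ZT12, and the 4 meninges and fibroblast markers (right) are lowest at ZT8 or ZT12.

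Of 9 genes of the thyrotropin and photoperiod list 2 passed the F test, Gata2 and Dio2 (against 1.52% of all genes), and the median span of the 9 was 0.38 log2. Tshb did not pass (adjusted p = 0.83), and its replicates differed most at ZT8, with 11.39 and 12.46. Cga (adjusted p = 0.90), Eya3, a co-activator of Tshb (0.69), and the melatonin receptor Mtnr1a (0.98) did not pass either. Gata2, a transcription factor of thyrotrophs, read 10.87 and 10.93 at ZT20, above all other arrays, which read 9.90 to 10.52 (adjusted p = 4.2e-04). Dio2, an enzyme that makes the active thyroid hormone, read 13.27 and 12.95 at ZT12, against 12.22 to 12.76 elsewhere (adjusted p = 0.0097, and 0.364 without ZT12 replicate 1), and 2 dimmer probe sets did not pass.

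In the remaining lists at most 2 members passed the F test, against 1.52% of all genes. In melatonin and cAMP signalling it was 2 of 21, Crem, a cAMP-responsive transcription factor (adjusted p = 0.0496, lost without any of 10 single arrays), and Rgs2, a regulator of G protein signalling, which read 13.26 and 13.16 at ZT12 and lost the call without any of 3 single arrays. In the immediate early list it was 1 of 25, Jun, a subunit of AP-1, which read 10.30 and 10.32 at ZT16 and 10.29 and 10.30 at ZT20, against 9.75 to 10.19 earlier (adjusted p = 0.014, and 0.0519 without ZT16 replicate 1), and 5 of 25 passed the cosine (against 3.56% of all genes). In endoplasmic reticulum folding 2 of 24 passed, Herpud1 and Creld2, which are induced by unfolded proteins, with peaks at ZT11.5 and ZT17.2, and the call for Creld2 was lost without ZT16 replicate 1. Rxrg, a retinoid X receptor, passed in thyroid hormone handling (2 of 10 with Dio2), and Idi1, an isomerase, in cholesterol synthesis (1 of 12). These 2 calls were lost without any of 3 and of 4 single arrays. By limma's F test none passed in cell cycle (0 of 16), ribosomal protein (0 of 28) or mitochondrial complex I (0 of 34) genes, nor in the cosine test, with 3, 1 and 2 genes at an unadjusted p under 0.05 in the F test. Their median spans were 0.31, 0.19 and 0.23 log2.

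Of the markers of other cell types, Fabp7 and Gjb6 passed among 10 of astrocytes, Kdr among 10 of endothelium and S100a8 among 6 of blood cells, against 1.52% of all genes. By limma's F test none passed among 11 of tanycytes, 10 of ependyma, 22 of hypothalamic neurons, 11 of oligodendrocytes and 11 of microglia, with 1, 1, 3, 1 and 1 at an unadjusted p under 0.05. At a share of 1.52%, none passing in lists this short is no result about these cell types. S100a8 was dim, at 4.87 to 6.06, and its call was lost without any of 3 single arrays.

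Some genes lacked on the delay day a course they had under short days. Neurod1, a transcription factor of endocrine and neural cells, read 6.86 to 7.32 in all 12 delay arrays with no change over the day that passed (adjusted p = 0.93). At ZT16 it read 7.15 and 7.15 in delay, against 9.42 and 9.03 under short days, where all other arrays read 5.97 to 6.48. Its course differed from that of short days by ZT (adjusted p = 9.1e-10) and with the 4 h offset (adjusted p = 2.1e-10). Klhl41, a Kelch protein known from muscle, likewise read 5.82 and 5.60 at ZT16 in delay, against 7.45 and 7.49 under short days (adjusted p = 1.9e-06).

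Gata2 peaked near its short day time instead, at ZT21.3 in delay and ZT20.7 under short days, a difference of 0.58 ± 0.66 h (SE), and its course differed from that of short days with the 4 h offset (adjusted p = 8.7e-05) and did not pass by ZT (adjusted p = 0.053). Cplx3 peaked 1.44 ± 0.50 h later in delay and differed under both matches (adjusted p = 0.011 by ZT and 0.0017 with the 4 h offset). Ddit4l peaked at ZT1.7 in delay and ZT0.37 under short days, 1.30 ± 0.69 h later, and differed with the 4 h offset alone (adjusted p = 0.0063).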

How the data were processed

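The log2 values are those the authors deposited, summarised per probe set by RMA in R 2.8.0 per the submitters' processing notes, and they were not normalized again. The 2 replicates are, per the design text, repeats of the entire experiment, and p-values measure the spread between them. Of 45101 probe sets, 34945 carried 1 gene symbol, 932 several and 9211 none. The one with the highest mean represented each of 18193 genes, 9010 of which had more than 1. A mean for each of 24 groups was fitted over all 48 arrays with limma 3.58.1 in R 4.3.3 (24 residual degrees of freedom, variance trend). F tests took all contrasts between time points, or the 24 h cosine and sine, with Benjamini-Hochberg adjustment across the whole set. Peak times and amplitudes come from the cosine, with delta method SEs. The procedure was tested on simulated data. The number of arrays limits the precision. Alternatives were own arrays only, a replicate block, other filters, probe set rules and variance settings, and each array left out.

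Named genes are members of the clock lists, the 20 smallest p-values, the largest ranges, the genes highest at each time point, the 10 smallest p-values against short day and up to 4 members of each other list. Genes that passed the F test with the largest 12 h amplitude relative to the 24 h amplitude were also named. Genes named for the 4 h offset were chosen after their values were seen, as were Ahsa2's place beside the heat shock genes and second probe sets. The members and the gene lists were chosen with earlier results of these data known. The files name no genome build. Coordinates of promoters are those of RefSeq.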

Additional observations from a re-analysis of the deposited data

Results flagged for a closer look

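The difference in daily course between delay and short day, tested as an interaction of lighting and time by ZT in limma, passed for 335 genes. Among named genes the adjusted p of this difference was 9.06e-10 for Neurod1, 3.682e-07 for Npas2, 1.932e-06 for Klhl41, 2.144e-06 for Per2, 3.818e-06 for Timeless and for Nr1d1, 8.273e-06 for Tspan4, 1.452e-05 for Lonrf1, 2.045e-05 for Ahsa2 and 5.78e-05 for Vegfd. Lonrf1, which encodes a protein with LON and RING domains, read 9.86 and 9.79 at ZT16 in delay and 10.43 and 10.26 there under short days. For further clock genes it was 9.854e-05 for Bhlhe40, 0.0004869 for Cry1, 0.002281 for Ciart, 0.004445 for Noct, 0.004621 for Dbp, 0.00745 for Tef, 0.01037 for Arntl, 0.01396 for Usp2, 0.01669 for Nr1d2, 0.01761 for Per1, 0.03029 for Per3 and 0.03905 for Wee1. Among these clock genes Timeless alone also passed when matched to short day arrays labelled 4 h earlier.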

How the results depend on the processing

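With the dim gene filter (282, 730 and 398 genes), the mean of probe sets (204, 458 and 243) and no variance trend (241, 568 and 294), the counts of genes in the F test, the cosine and the course difference stayed within 1.5 times of 276, 647 and 335, as did the course difference against short day arrays 8 h earlier (406). A cosine regression gave 450 genes and leaving out ZT0 gave 507. Using only the 12 delay arrays, or 24 with short day, gave 92, 321 and 63, with fewer residual degrees of freedom. Matching to short day arrays 4, 12, 16 and 20 h earlier gave 36, 1013, 887 and 866 genes. The median peak difference of the clock genes was 3.93 to 4.10 h with the filter, the mean of probe sets, no trend and own arrays and 3.76 to 4.17 h with single arrays left out.

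With single arrays left out, the F test gave 172 to 273 genes and the cosine 350 to 580 genes, lower by more than 1.5 times without ZT4 replicate 1 (399), ZT4 replicate 2 (368), ZT8 replicate 2 (420), ZT12 replicate 1 (350), ZT16 replicate 1 (417) and ZT16 replicate 2 (401). The course difference gave 116 to 1109, with over 1.5 times fewer or more without delay ZT0 replicate 1 (507), ZT4 replicate 1 (196), ZT8 replicate 2 (177) or ZT12 replicate 1 (166), and without short day ZT4 replicate 1 (156) or ZT16 replicate 1 (920). The cause was not tested.

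A block for the replicate number within each lighting condition gave 497, 1140 and 867 genes and a median peak difference of 3.89 h. No label says that a number marks the same run at every time point: the gap between replicates 1 and 2 had, for pairs of time points, an r over genes of -0.187 to 0.48, with 11 of 15 pairs of time points over 0.1. Pairs with ZT4 reached at most 0.16 and those without it were at least 0.18. Of the 72 genes followed, 55 kept their side of the threshold with the delay arrays alone, 63 with mean probe sets and 72 with the block. At 2 arrays per time point, small amplitudes are at the limit of what could pass.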

Other observations

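In some genes the readings stood out at single time points, although 0 of 18193 genes departed from a 24 h cosine after adjustment. Gpr6, Kcnf1 and S1pr3 were picked for a large 12 h amplitude relative to the 24 h amplitude. Their adjusted p values are of the F test over the day and do not test the shape. Pde10a, a phosphodiesterase of cyclic nucleotides, read 10.12 and 10.14 at ZT4, against 9.10 to 9.74 in the other delay arrays, and did not pass (adjusted p of limma's F test = 0.069), while 2 of its 4 other probe sets did (adjusted p = 0.030 and 0.0018), with peaks at ZT4.3 and ZT5.1. Gpr6, a receptor that raises cAMP, read 7.09 and 6.28 at ZT8, against 6.90 to 7.96 elsewhere, with overlap (adjusted p = 0.0051). Kcnf1, a modifier of potassium channels, was highest at ZT12 with 9.53 and 9.52, against 8.82 to 9.33 elsewhere (adjusted p = 0.014). S1pr3, a receptor for sphingosine 1-phosphate, read 11.06 and 11.07 at ZT8, 10.60 and 10.61 at ZT12, and 10.92 and 11.13 at ZT20 (adjusted p = 0.0064).

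Aldh1a3, an enzyme of retinoic acid synthesis, read 6.73 and 7.05 at ZT8, against 5.45 and 5.56 at ZT16 (adjusted p = 0.0015), and its 2 other probe sets, with amplitudes of 0.092 and 0.11, did not pass. Ifi44l, an interferon-stimulated gene, read 6.58 and 6.86 at ZT4 and 5.88 and 7.08 at ZT8, against 5.03 to 6.13 elsewhere, with overlap (adjusted p = 0.042). Gjb6, a connexin of astrocytes, and Prg4, a secreted proteoglycan, were low at ZT8 and ZT12, as were the fibroblast markers, with Gjb6 at 10.35 to 10.59 and Prg4 at 6.93 to 7.18. P4ha2, a subunit of collagen prolyl hydroxylase, was instead highest at ZT16 with 9.89 and 9.91 (adjusted p = 4.7e-04).

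Of 294 other probe sets of the 276 genes, 130 lay above the median level, and 33 of these passed and 104 peaked within 2 h of the probe set used.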
